A study of Mus musculus with 9 samples.

Results

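The Cyp2a and Cyp2b cytochromes P450 were followed in the livers of male C57BL/6 mice, 8 weeks old, on 9 Illumina bead arrays. The 8 genes, Cyp2a4, Cyp2a5, Cyp2a12, Cyp2a22, Cyp2b9, Cyp2b10, Cyp2b13 and Cyp2b23, were taken by symbol, with every probe that the array's annotation gives to 1 of them. The family was chosen by measured values: the rises of some of its members with thyroid hormone were already known, so the difference between T3 and euthyroid liver is given as a description, with no p-value for a member and its counts of calls only beside those of all genes. Of the 8 genes 7 had a probe and 6 passed the filter, of 10408 genes tested in all. The mice fell into 3 groups of 3 arrays. Euthyroid mice had no T3 (0 days). Hyperthyroid mice had received triiodothyronine (T3), the active thyroid hormone, for 3 days. The mice of the other group had received T3, also for 3 days, and, by hydrodynamic tail vein injection, siRNA against FOXO1, a forkhead transcription factor of the liver. No group with a control siRNA or a control injection is named, so the siRNA and its injection cannot be told apart. Nothing in the labels states that the 3 arrays of a group came from 3 mice, and p-values therefore measure only the spread between these samples, which may be technical.

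Cytochromes P450 are haem enzymes of the endoplasmic reticulum that oxidise steroids, fatty acids and foreign compounds with electrons from cytochrome P450 reductase. In mouse liver Cyp2b10 is the textbook target of the constitutive androstane receptor CAR (Nr1i3), through which phenobarbital acts, and the pregnane X receptor PXR (Nr1i2) shares many of its targets. Cyp2a5 is the mouse coumarin 7-hydroxylase, Cyp2a4 is a steroid 15-alpha-hydroxylase and Cyp2a12 hydroxylates steroids. Cyp2a4, Cyp2b9 and Cyp2b13 are known as genes that female mouse liver expresses more than male liver, under the sex-specific pattern of growth hormone. FOXO1 has been described as a partner of CAR at drug-metabolism genes.

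In the RefSeq annotation of mouse build GRCm38.p6 the 8 genes lie within 1139.2 kb of chromosome 7, from 25897658 to 27036818, in the order Cyp2b10, Cyp2b13, Cyp2b9, Cyp2a4, Cyp2b23, Cyp2a5, Cyp2a22 and Cyp2a12. Cyp2a4 spans 26307192 to 26315088 and Cyp2a5 spans 26835339 to 26843264. The windows around their transcription starts (300 bases, of which 50 follow the start; RefSeq, GRCm38.p6) are shown because these paralogues are near copies whose signals differed in size. Of 299 aligned bases 294 were the same (98.3%), and capitals mark the 5 that differ. The Cyp2a4 window is chr7:26306942-26307241 and the Cyp2a5 window is chr7:26835089-26835388, both on the plus strand.
Cyp2a4: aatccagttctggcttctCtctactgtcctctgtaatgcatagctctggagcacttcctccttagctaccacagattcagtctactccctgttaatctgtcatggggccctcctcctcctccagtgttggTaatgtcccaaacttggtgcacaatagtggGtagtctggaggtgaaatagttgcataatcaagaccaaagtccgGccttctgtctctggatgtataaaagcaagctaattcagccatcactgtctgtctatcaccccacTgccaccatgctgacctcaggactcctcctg
Cyp2a5: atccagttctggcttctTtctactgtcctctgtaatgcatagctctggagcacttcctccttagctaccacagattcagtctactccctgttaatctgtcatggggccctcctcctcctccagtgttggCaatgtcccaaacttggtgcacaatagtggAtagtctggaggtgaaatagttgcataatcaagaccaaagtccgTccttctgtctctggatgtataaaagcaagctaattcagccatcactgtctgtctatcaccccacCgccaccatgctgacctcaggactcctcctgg
Counted from 1 at the 5′ end of the Cyp2a4 window, with the base of Cyp2a4 first, the differences are C19T, T131C, G161A, G205T and T270C.

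Cyp2b9 and Cyp2b13 form the other close pair, with 298 of 300 window bases the same (99.3%). They are shown because only Cyp2b9 was measured above background on all arrays. The Cyp2b9 window is chr7:26173159-26173458 and the Cyp2b13 window is chr7:26061245-26061544, both on the plus strand, with the differing bases in capitals. The annotated spans of these genes begin at 26173350 and 26061388, upstream of the start base used for their windows. Motif positions below for this pair count from that start base.
Cyp2b9: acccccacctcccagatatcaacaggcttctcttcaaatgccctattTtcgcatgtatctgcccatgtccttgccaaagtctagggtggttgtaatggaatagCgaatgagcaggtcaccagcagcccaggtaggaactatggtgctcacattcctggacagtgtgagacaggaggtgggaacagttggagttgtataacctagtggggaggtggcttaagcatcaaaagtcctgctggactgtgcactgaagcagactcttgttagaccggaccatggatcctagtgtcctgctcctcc
Cyp2b13: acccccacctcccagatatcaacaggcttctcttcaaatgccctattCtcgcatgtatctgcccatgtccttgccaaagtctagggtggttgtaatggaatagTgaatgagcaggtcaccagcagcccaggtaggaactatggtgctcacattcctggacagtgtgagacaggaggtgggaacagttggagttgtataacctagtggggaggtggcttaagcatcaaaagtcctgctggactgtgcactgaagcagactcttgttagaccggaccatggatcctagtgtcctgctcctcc
The differences, counted from the 5′ end with the base of Cyp2b9 first, are T48C and C104T. The windows of Cyp2a12 and Cyp2a22 were 89.6% identical, and that of Cyp2b10 was 79.6% identical to the Cyp2b23 window and 73.4% to the Cyp2b9 window. Sequences of the array's probes were not used here, so whether a probe of one paralogue also takes up RNA of its neighbour was not tested.

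Motifs were searched by their letters on both strands of all 32851 windows. The forkhead motif TGTTTAC was in 0 of the 8 windows (3.65% of all windows) and the STAT motif TTCNNNGAA in 0 of 8 (8.3% of all). The nuclear receptor motif AGGTCA was in 5 of 8 (16.26% of all): Cyp2a4, Cyp2a5, Cyp2b9, Cyp2b13 and Cyp2b23. The near copies Cyp2a4 and Cyp2a5 share a match that follows the start, at positions 30 and 29. Cyp2b9 and Cyp2b13 share another, at -138. The windows are therefore not independent, and nothing is read from the 5 of 8. The motif TTGCATAA, of the kind that C/EBP and PAR bZIP factors such as DBP bind, was in the windows of Cyp2a4, Cyp2a5, Cyp2b10 and Cyp2b23, at positions -85 to -58 relative to the start, and in 0.74% of all windows. This motif was chosen after the windows had been read, and Cyp2a4 and Cyp2a5 again share a match (-70 and -71). No position of one motif overlaps another in these windows. A match is a description of letters, and its absence says only that the letters are not in the window.

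The median raw signal of the arrays was 109 to 127 and 36.4% to 40.5% of 45281 probes were detected (detection p under 0.05). Levels below are raw signals, and differences are of background-corrected, quantile-normalised log2 signals, with the SE of one limma fit and n = 3 arrays a group. Adjusted p-values run over all 10408 genes, and a gene with an adjusted p under 0.05 is said to have passed. The siRNA's target Foxo1 had signals of 497, 559 and 442 in euthyroid liver, 556, 1043 and 878 with T3, and 464, 485 and 517 with T3 and siRNA. The siRNA group was lower than the T3 group by a log2 difference of -1.07 (SE 0.14, adjusted p = 0.001715), and by -0.75 on the other Foxo1 probe (adjusted p = 0.01222). Against euthyroid liver Foxo1 did not pass on the brighter probe (-0.30, adjusted p = 0.1519) and passed on the other (-0.70, adjusted p = 0.01136).

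T3 replicate 2 stood apart for this family. It was the highest of the 9 arrays for 6 of the 6 tested genes, against 13.9% of all genes. The same held for 10 of their 10 tested probes, of which 5 are of Cyp2a5. The members were chosen on rises with T3, which favours high values on a T3 array, so nothing is read from these counts. Over the mean of the other T3 arrays it was higher by a log2 difference of 2.58 for Cyp2b10, 1.59 for Cyp2b9 and 1.38 for Cyp2b23, but by 0.49 for Cyp2a4, 0.39 for Cyp2a5 and 0.21 for Cyp2a12. A gap above 1 occurred in 67 of 10408 genes (0.644%), and Cyp2b10 and Cyp2b9 ranked 2 and 5 of all. The gaps of the 3 Cyp2b genes were larger than those of the 3 Cyp2a genes, and their differences between groups are given with and without it.

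**Figure D1:**
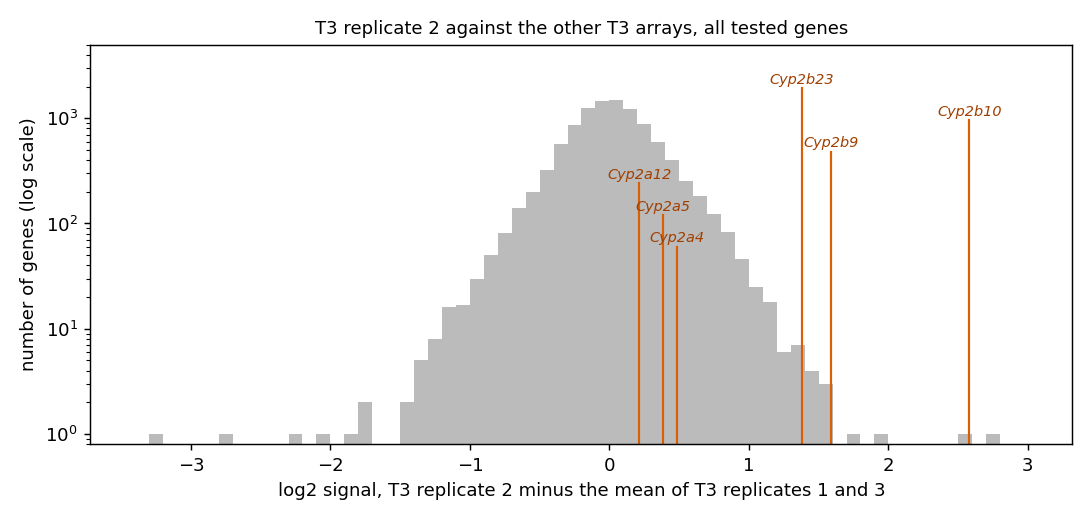
Number of genes (log scale) by the difference in log2 signal between T3 replicate 2 and the mean of T3 replicates 1 and 3, for 10408 tested genes. Orange lines mark the 6 tested Cyp2a and Cyp2b genes (their heights only place the names); Cyp2b10 at 2.58, Cyp2b9 at 1.59 and Cyp2b23 at 1.38 lie in the right tail.

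Cyp2a4, the steroid 15-alpha-hydroxylase, separated the 3 groups. Its signals were 1117, 1264 and 723 in euthyroid liver, 3089, 7593 and 5069 with T3, and 1589, 2797 and 2541 with T3 and siRNA. No array of one group fell within the range of another, with T3 highest and euthyroid lowest. T3 liver was 5.00-fold above euthyroid liver (log2 difference 2.32), and 2.16 on the log2 scale without T3 replicate 2. With siRNA Cyp2a4 fell against T3 by 1.26 on the log2 scale (SE 0.27, adjusted p = 0.01274) and stayed above euthyroid liver by 1.06 (SE 0.27, adjusted p = 0.0196). Without T3 replicate 2 the difference between siRNA and T3 was -1.10 (adjusted p = 0.04234).

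Cyp2a5, the coumarin 7-hydroxylase, had 5 probes, all detected on all arrays, and they did not give one picture. The brightest probe read 28656, 22120 and 19605 in euthyroid liver, 23845, 40477 and 28986 with T3, and 18679, 21692 and 21257 with T3 and siRNA. On this probe the T3 and euthyroid arrays overlapped, and the siRNA arrays lay below all T3 arrays. The brightest probe stands for Cyp2a5 in the counts below. The highest signals of the arrays were 58149 to 61453, and whether the scale is compressed at this probe's signals was not tested. The T3 group was higher than the euthyroid group by a log2 difference of 0.41 on the brightest probe and by 0.87, 1.28, 1.37 and 0.58 on probes 2 to 5, so the probes ranged from 1.32-fold to 2.58-fold. The T3 arrays did not overlap the euthyroid arrays on probes 2, 3 and 4.

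With siRNA all 5 Cyp2a5 probes were lower than with T3. The brightest fell by 0.58 (SE 0.15, adjusted p = 0.02886), and without T3 replicate 2 the difference was -0.45 (adjusted p = 0.07519). Probes 2 to 5 differed by -0.53, -1.05, -1.06 and -1.14, with adjusted p = 0.1075, 0.05092, 0.05005 and 0.01739 over all named probes. Set against euthyroid liver, the siRNA group was at -0.18 on the brightest probe (adjusted p = 0.4237), at 0.35, 0.23 and 0.31 on probes 2 to 4 and at -0.56 on probe 5, and none of the 5 passed. The sign of this difference thus depended on the probe. Relative to their own euthyroid means, Cyp2a4 exceeded the brightest Cyp2a5 probe by 1.71, 1.98 and 2.06 on the T3 arrays and by 0.86, 1.53 and 1.32 on the siRNA arrays, on the log2 scale. The excess was smaller over probe 4, at 0.97, 0.62 and 1.27 on the T3 arrays and 0.82, 1.00 and 0.42 on the siRNA arrays, and larger than 0 over each of the 5 probes.

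**Figure D2:**
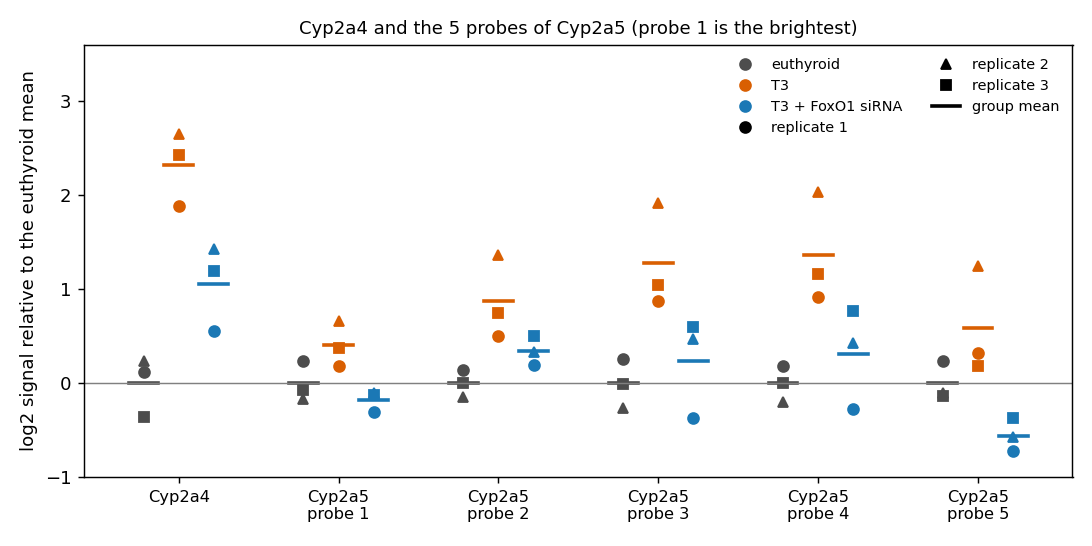
Log2 signal of Cyp2a4 and of the 5 Cyp2a5 probes on each array, relative to the probe's euthyroid mean; bars are group means of 3 arrays and symbols are replicates. The Cyp2a5 probes differ in how far the T3 arrays lie above 0 (means of 0.41 to 1.37) and in the side of 0 on which the siRNA arrays lie.

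Cyp2a12, a liver steroid hydroxylase, had its siRNA arrays within reach of the T3 arrays and above the euthyroid arrays. Its signals were 16804, 15639 and 13810 in euthyroid liver, 17581, 27923 and 20388 with T3, and 22202, 20541 and 21924 with T3 and siRNA. After normalisation both T3 groups lay above every euthyroid array and overlapped each other. T3 liver was 1.38-fold above euthyroid liver (log2 difference 0.47, and 0.40 without T3 replicate 2). The siRNA and T3 groups differed by 0.02 (SE 0.10, adjusted p = 0.9257), and the siRNA group was higher than euthyroid liver by 0.48 (SE 0.10, adjusted p = 0.009078). When arrays were scaled to a common median in place of quantiles, the last difference was 0.38 and did not pass (adjusted p = 0.1595). No probe of Cyp2a22 is in the annotation used here.

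Cyp2b9, a female-predominant P450, read 1406, 757 and 466 in euthyroid liver, 1469, 8186 and 2664 with T3, and 640, 1460 and 905 with T3 and siRNA. The normalised T3 arrays lay above all others, but T3 replicate 1 was near euthyroid replicate 1, and siRNA and euthyroid arrays overlapped. T3 liver was 4.25-fold above euthyroid liver (log2 difference 2.09), and 1.56 on the log2 scale without T3 replicate 2. With siRNA Cyp2b9 fell against T3 by 2.02 (SE 0.56, adjusted p = 0.03369). Without T3 replicate 2 that difference was -1.49 and did not pass (adjusted p = 0.08997). Between siRNA and euthyroid liver it was 0.06 (SE 0.56, adjusted p = 0.9443).

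Cyp2b13, the close copy of Cyp2b9, was near background on all arrays but 1. Its signals were 128, 104 and 101 in euthyroid liver, 108, 672 and 124 with T3, and 128, 127 and 130 with T3 and siRNA. It was detected on T3 replicate 2 and, with a signal of 128, on siRNA replicate 1, so it missed the filter of 3 detected arrays and was not tested. The T3 group was at least 1.80-fold above the euthyroid group, where no array detected it, and this bound rests on T3 replicate 2, without which no T3 array detected it. With no filter its siRNA group differed from T3 by -0.96 (adjusted p = 0.5848) and from euthyroid liver by 0.40 (adjusted p = 0.8534).

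Cyp2b10, the phenobarbital-inducible CAR target, had no common direction among the arrays. Its brighter probe read 377, 176 and 164 in euthyroid liver, 135, 552 and 164 with T3, and 115, 155 and 194 with T3 and siRNA. Replicate 1 of the euthyroid group and replicate 2 of the T3 group were high, siRNA replicate 1 was not detected, and the T3 group overlapped both others. T3 liver differed from euthyroid liver by -0.22 on the log2 scale, and by -1.08 without T3 replicate 2. The siRNA group differed from T3 by -1.03 (SE 0.73, adjusted p = 0.3449), and by -0.17 without T3 replicate 2 (adjusted p = 0.8598). Against euthyroid liver it was at -1.25 (SE 0.73, adjusted p = 0.2341), with all normalised siRNA arrays below the euthyroid arrays. The other Cyp2b10 probe was detected on 0 of 9 arrays.

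Cyp2b23 read 205, 132 and 104 in euthyroid liver, 228, 933 and 449 with T3, and 150, 250 and 249 with T3 and siRNA. The T3 arrays were above all others after normalisation, and the siRNA and euthyroid arrays overlapped. Euthyroid replicate 3 did not detect it. T3 liver was 6.91-fold above euthyroid liver (log2 difference 2.79), and 2.33 on the log2 scale without T3 replicate 2. Near background the size depended on the processing: over 19 alternatives the log2 difference was 1.60, with no background correction, to 3.36, without euthyroid replicate 1. The siRNA group was at -1.81 against T3 (SE 0.60), which did not pass (adjusted p = 0.063, and 0.1749 at -1.35 without T3 replicate 2). It passed on 5 of 19 alternatives, among them the authors' normalised values (-1.25, adjusted p = 0.01614). Its difference between siRNA and euthyroid liver was 0.97 (SE 0.60, adjusted p = 0.2613). The other Cyp2b23 probe was detected on 0 of 9 arrays.

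**Figure D3:**
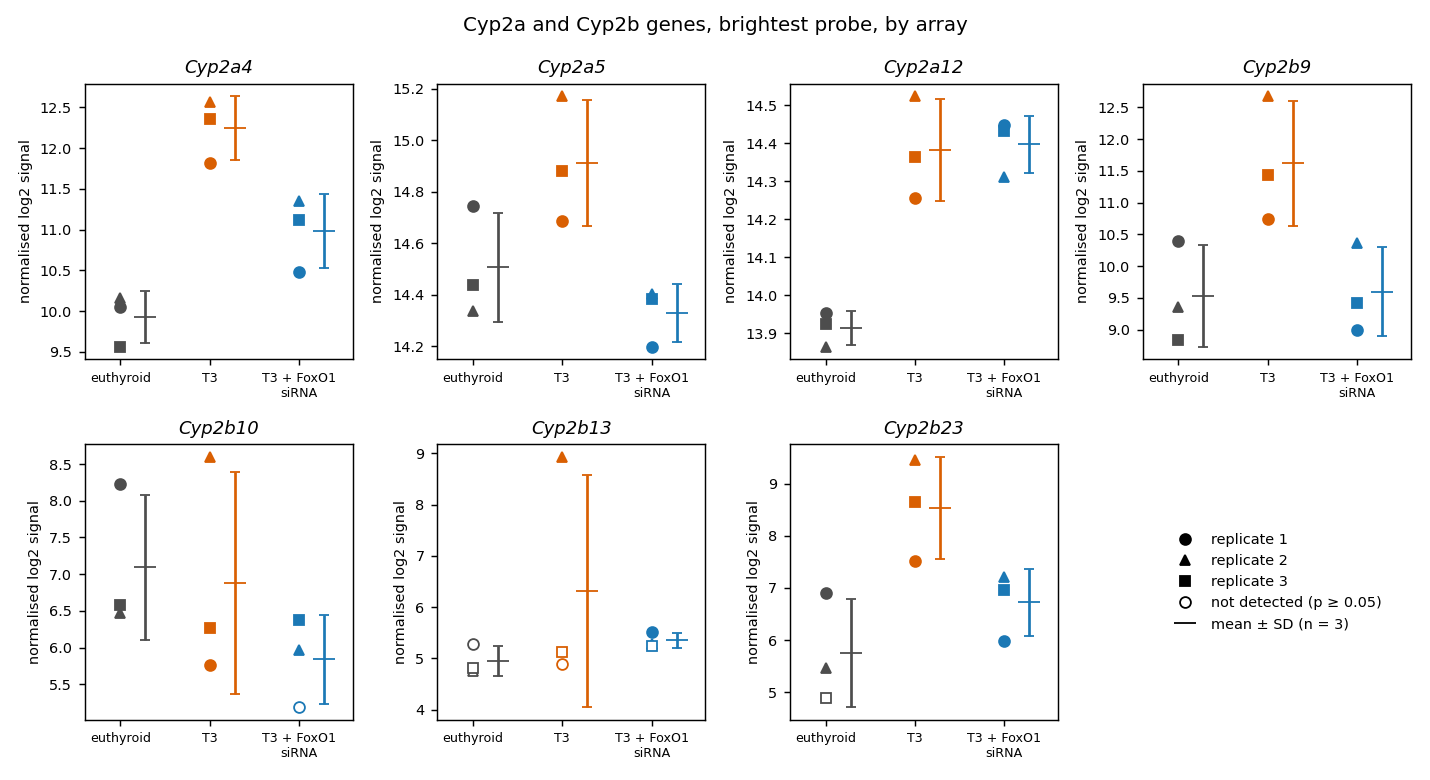
Normalised log2 signal of the brightest probe of 7 Cyp2a and Cyp2b genes on each array, with the mean and SD of 3 arrays; open symbols are arrays where the probe was not detected, and each panel has its own axis, which does not start at 0. T3 replicate 2 (triangles) is the highest array in every panel.

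Over the 6 tested genes, 4 were called higher with T3 than in euthyroid liver and 0 lower, beside 7.8% and 10.6% of all genes. The T3 arrays lay above all euthyroid arrays in 4 of 6, beside 16.5% of all genes. The members were chosen on this contrast, so nothing is read from those counts. Between siRNA and T3, 3 of 6 passed lower (Cyp2a4, Cyp2a5 and Cyp2b9) and 0 higher, where 7.72% of all genes passed lower and 11.7% higher. The siRNA arrays lay below all T3 arrays in 4 of 6, beside 17.5% of all genes, and the median log2 difference was -1.15, against 0.01 over all genes. Without T3 replicate 2 only Cyp2a4 passed, 1 of 6, while over all genes 557 passed lower in place of 804. This contrast uses the same T3 arrays as the one the members were chosen on, so high values on a T3 array enter both with opposite signs.

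Between siRNA and euthyroid liver, 2 of 6 passed higher (Cyp2a4 and Cyp2a12) and 0 lower, beside 13.4% and 13.3% of all genes. The siRNA arrays lay above all euthyroid arrays in 2 of 6 (22.1% of all genes) and below them in 1, Cyp2b10 (24% of all genes). The median log2 difference was 0.27, against -0.02 over all genes. This contrast shares the euthyroid arrays with the choosing one. With median scaling the split over all genes moved from 1221 higher and 804 lower to 1541 and 197 for siRNA against T3, with the median of all genes at 0.17, and from 1397 and 1382 to 1309 and 469 for siRNA against euthyroid liver. The siRNA and T3 differences of Cyp2a4, Cyp2a5 and Cyp2b9 still passed under that scaling, at -1.21, -0.62 and -1.89.

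**Figure D4:**
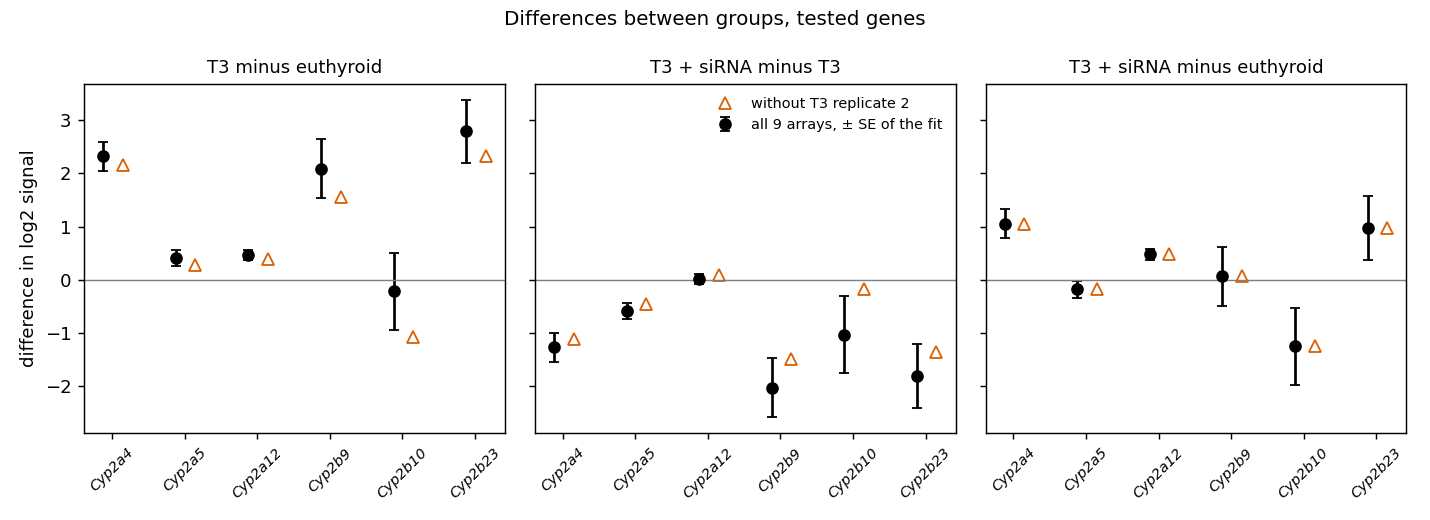
Difference in log2 signal between groups for the 6 tested genes: black points with the SE of the fit are from all 9 arrays, open triangles are without T3 replicate 2. Cyp2a4 moves little when that array is left out (from -1.26 to -1.10 between siRNA and T3), while Cyp2b10 moves from -1.03 to -0.17.

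The gene of CAR, Nr1i3, had signals of 3012, 3564 and 2494 in euthyroid liver, 1352, 2025 and 1732 with T3, and 1283, 1798 and 1371 with T3 and siRNA. It fell with T3 by 0.88 on the log2 scale (SE 0.16, adjusted p = 0.007623), was at -0.37 between siRNA and T3 (adjusted p = 0.1313), and was lower than euthyroid liver by -1.25 with siRNA (adjusted p = 0.001237). Its probes disagreed: with T3 the 3 brighter of 5 were at -0.88, -0.95 and -0.61 and passed, and the 2 dimmer were at -0.05 and -0.23 and did not. Between siRNA and T3 the dimmest probe rose by 0.39 (adjusted p = 0.03026), against the direction of the brighter 3, and the 2 dimmer probes were at 0.09 and 0.15 against euthyroid liver (adjusted p = 0.7536 and 0.2923). Nr1i2 (PXR) read 1132, 1146 and 1030 in euthyroid liver, 1155, 2066 and 1306 with T3, and 1105, 829 and 958 with T3 and siRNA. It fell between T3 and siRNA by 0.86 (SE 0.14, adjusted p = 0.004149), after a T3 difference of 0.41 that did not pass (adjusted p = 0.07068).

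Of 19 tested regulators of Cyp2a and Cyp2b transcription, 3 rose and 1 fell with T3, 1 rose and 7 fell between T3 and siRNA, and 1 was higher and 4 lower with siRNA than in euthyroid liver. Among those that fell with siRNA, Foxo1 included, were Cebpb, a C/EBP factor (-0.72, adjusted p = 0.002869), and Nr1i2. Hnrnpa1, an RNA-binding protein described as a regulator of Cyp2a5 mRNA, rose by 0.81 (adjusted p = 0.007163). Dbp, the clock-driven factor known to act at Cyp2a4 and Cyp2a5, was at -0.47 with T3 (adjusted p = 0.1129) and at 0.28 between siRNA and T3 (adjusted p = 0.3332). Nfe2l2 (NRF2), a regulator of Cyp2a5, was at 0.07 and 0.25 and did not pass (adjusted p = 0.8493 and 0.4257).

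Other targets of CAR and PXR changed in both directions. Of 21 tested, 5 rose and 4 fell with T3 (7.8% and 10.6% of all genes), 3 rose and 4 fell between T3 and siRNA (11.7% and 7.72%), and 2 were higher and 6 lower with siRNA than in euthyroid liver (13.4% and 13.3%). The 3 of 21 that rose between T3 and siRNA are near the share of all genes, and the counts of the other lists stand against the same shares. Cyp2c29, a phenobarbital-inducible P450, fell with T3 by 1.30 (adjusted p = 0.009362) and with siRNA against T3 by 1.02 (adjusted p = 0.021). Abcc3, an export pump for conjugates, fell with T3 by 1.90 (adjusted p = 0.0006132) and rose with siRNA by 0.82 (adjusted p = 0.005168), the opposite order to Cyp2a4. Gsta1, a glutathione transferase, rose with siRNA by 3.18 (adjusted p = 0.001778).

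Of 28 other tested P450s of families 1 to 3, 5 rose and 6 fell with T3, and 0 rose and 8 fell between T3 and siRNA, with a median log2 difference of -0.34 against -1.15 for the 6 Cyp2a and Cyp2b genes. The difference between these lists was not tested, and choosing the family on rises with T3 favours a lower median for it in this contrast. Cyp2c38 and Cyp2c39 rose with T3 by 2.15 and 2.26 (adjusted p = 0.001394 and 0.001347) and fell with siRNA by 1.60 and 0.86 (adjusted p = 0.002676 and 0.03912), with siRNA between the other groups. In euthyroid liver they were detected on 1 and 2 of 3 arrays, so these rises start near background, and Cyp2c38 with siRNA overlapped euthyroid liver (0.54, adjusted p = 0.1183). Cyp1a2, a pericentral P450, fell with T3 by 1.57 (adjusted p = 0.002844). Against euthyroid liver 3 of the 28 were higher and 15 lower with siRNA. Of 16 genes for P450 electron transfer and haem supply, 2 rose and 3 fell with T3, 1 rose and 3 fell between T3 and siRNA, and 2 were higher and 7 lower with siRNA than in euthyroid liver. Alas1, the rate-limiting enzyme of haem synthesis, fell with T3 by 0.47 (adjusted p = 0.04729) and was at -0.02 between siRNA and T3 (adjusted p = 0.9247). The reductase gene Por has no probe in the annotation used here.

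Genes that differ between the sexes were set beside the family because Cyp2a4, Cyp2b9 and Cyp2b13 are female-predominant and all mice were male. Of 17 other female-biased genes listed, 12 had a probe and only 6 passed the filter. Of these 6, 4 rose and 1 was lower with T3, and 0 rose and 2 fell between T3 and siRNA. A1bg, among those that rose with T3, was detected on 1 of 3 euthyroid arrays. Cyp17a1, a steroid hydroxylase, read 239, 265 and 169 in euthyroid liver, 1800, 8576 and 4050 with T3, and 765, 1842 and 1240 with T3 and siRNA, the group order of Cyp2a4 and again with T3 replicate 2 the highest. It rose with T3 by 4.80 (adjusted p = 0.0009015) and fell with siRNA by 1.94 (adjusted p = 0.01989). Fmo2, also female-biased, was detected on 0 of 3 T3 arrays and was at least 1.25-fold lower with T3 (adjusted p = 0.01456). Of 16 male-biased genes, 1 rose (Mup20, 1.31, adjusted p = 0.0009015) and 7 fell with T3, among them Cyp4a12b (-2.40, adjusted p = 0.005396), and 0 rose and 2 fell between T3 and siRNA.

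Of 12 genes of growth hormone signalling and sex-specific regulation, 4 rose and 2 fell with T3, 1 rose and 3 fell between T3 and siRNA, and 3 were higher and 2 lower with siRNA than in euthyroid liver. Cux2, a female-enriched repressor, rose with T3 by 1.98 (adjusted p = 0.009629), from a euthyroid group with 1 of 3 arrays detected, and fell with siRNA by 1.33 (adjusted p = 0.03799). Stat5a, a growth hormone signal transducer, rose by 1.08 (adjusted p = 0.003692) and fell by 0.58 (adjusted p = 0.03367). Socs2, an inhibitor of growth hormone signalling, rose with siRNA by 1.31 (adjusted p = 0.03048).

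Markers of other liver cells and of inflammation moved in the siRNA group beside the falls of Cyp2a4, Cyp2a5 and Cyp2b9. Of 17 acute phase genes 8 rose and 1 fell between T3 and siRNA, and the summed signal was 273780 to 334680 with T3 and 357870 to 429110 with siRNA. Lcn2 rose by 4.95 (adjusted p = 0.0008927). Of 8 macrophage markers 5 rose and 0 fell, with summed signals of 8999 to 14598 and 15906 to 20303, and of 11 stellate cell and fibroblast markers 7 rose and 2 fell, with overlapping sums of 12821 to 18732 and 17898 to 20092. The sums are of raw signals. On the normalised log2 scale the median of these 11, relative to the euthyroid mean, was -0.63 to -0.40 with T3 and 0.29 to 0.54 with siRNA, without overlap. Of 9 hepatocyte markers 0 rose and 3 fell, with sums of 227070 to 272770 and 229510 to 242700. Those that fell were Alb, Hpd and Ass1, which is also a periportal marker. The Alb probe was dim for a hepatocyte marker, with a mean log2 signal of 9.56 with T3 beside 15.49 for Apoa1. The part of all these markers in the result on Cyp2a and Cyp2b genes was not tested. In whole liver, fewer cells of a type and less RNA per cell cannot be told apart.

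Zonation markers changed in the T3 contrast too. Of 10 pericentral hepatocyte markers 0 rose and 6 fell with T3, and of 7 periportal markers 3 rose and 0 fell. Between T3 and siRNA 1 pericentral marker and 4 periportal markers fell and 0 of either rose. Of 16 thyroid hormone targets 4 rose with T3, among them Dio1, the type 1 deiodinase (1.92, adjusted p = 0.0006132), and 0 fell. Between T3 and siRNA 2 of these 16 rose and 7 fell. Pck1, which rose with T3 and fell with siRNA, is counted both here and among the periportal markers. Of 9 endothelial markers 1 fell with T3 and 0 passed between siRNA and T3.

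Within the family, Cyp2b9 and Cyp2b23 had the most alike patterns, with Pearson's r of 0.947 over 9 arrays and 0.915 without T3 replicate 2. Cyp2a4 and Cyp2b23 followed at 0.933 and 0.908. Cyp2b10 was unlike Cyp2a4 (r of 0.115, and -0.392 without T3 replicate 2), and Cyp2a12 was unlike Cyp2a5 (0.265 and -0.073). Pooled over the groups, with T3 replicate 2 included, the deviations of these pairs from their group means had r of 0.623 and 0.648. In the siRNA group, however, replicate 1 was the highest for Cyp2a12 and the lowest for Cyp2a5, and replicate 2 the reverse. These are descriptions over arrays that share groups and a high array. Outside the family the genes most like Cyp2a4 were Cct5, Fam214b and Cyp17a1 (r of 0.991, 0.985 and 0.984). Those most like Cyp2a5 were Mpv17l2, Plscr2 and Acot13 (0.978, 0.958 and 0.951), and those most like Cyp2a12 were Pgk1, Pnrc2 and Wfdc16 (0.986, 0.983 and 0.979). Nsfl1c was among the 3 most like both Cyp2b9 and Cyp2b23 (0.963 and 0.968, and 0.926 and 0.950 without T3 replicate 2). For Cyp2b10 they were Sulf2, Mknk2 and ND6 (0.950, 0.925 and 0.923, and 0.909, 0.896 and 0.855 without that array).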

How the data were processed

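Liver RNA of 9 mouse arrays (3 euthyroid, 3 T3, 3 T3 with FOXO1 siRNA; groups and replicate numbers from the labels) was analysed. The authors deposited linear probe signal intensities without normalisation together with detection p-values (per the file headers), whose steps imply 936 negative controls. They also deposited quantile-normalised intensities of the same arrays (sorted values within 0.0693% of the mean sorted signals), used as an alternative. The submitters' processing notes name Partek 6.6 without a step. The image analysis is not given in the sources used here.

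In R 4.3.3 with limma 3.58.1 and statmod 1.5.0, neqc was run with an offset of 16 (background from negative controls inferred through the detection p-values, quantile normalisation, log2). Of 45281 probes 34885 have 1 gene symbol, 18 several and 10378 none, and only the first were used. Probes with a detection p under 0.05 on at least 3 of 9 arrays were kept (18581, of which 15754 have 1 symbol), and the probe with the highest mean stood for each of 10408 genes. One fit with 3 group means gave 3 two-sided differences (lmFit, eBayes; Benjamini-Hochberg over all genes; threshold 0.05). A bound for a gene not detected in a group sets its mean at the higher, per array, of its own value and the lowest detected value. The fit was tested on simulated data.

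The members, the 17 gene lists, the tests and the alternatives were chosen with earlier results of these data known. Named genes are all members, Foxo1, Nr1i3, Nr1i2, Nfe2l2, Alas1 and, per list and comparison, up to 4 called genes with the lowest adjusted p; Dbp was named after its values were seen. The lists hold CAR and PXR targets, regulators, growth hormone signalling, female-biased and male-biased genes, electron transfer and haem, other P450s, acute phase, thyroid hormone targets and markers of 8 cell types, of which neutrophil and monocyte (2 tested, 0 called between siRNA and T3) and cholangiocyte markers (2 tested, 2 higher) had few tested genes. Promoter windows are from RefSeq (GRCm38.p6).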

Additional observations from a re-analysis of the deposited data

How the results depend on the processing

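For the Cyp2a and Cyp2b genes, the only ones for which alternatives were run gene by gene, every alternative kept the direction of each passed difference. The count of Cyp2a and Cyp2b genes called between siRNA and T3, 3 in the fit with all arrays, was 1 to 4 when 1 array was left out, and 1 without T3 replicate 2, T3 replicate 3, siRNA replicate 1 or siRNA replicate 3. Calls fell over all 10408 genes too: 804 passed lower with all arrays, and 557, 470, 669 and 412 in those fits in turn. Cyp2a4 passed in all 20 alternatives (adjusted p of 0.002035 to 0.04234), Cyp2b9 in 15 of 20 (0.00906 to 0.09857), Cyp2a5 in 14 of 20 (0.007894 to 0.07732) and Cyp2b23 in 5 of 19 (0.01499 to 0.1749). The alternatives reuse the same arrays, among them T3 arrays on which the family was chosen, so these tallies are not independent support. Cyp2a4 and Cyp2b9 have 1 probe each, detected on all arrays. For them, changes of filter or probe choice could move only the adjusted p. The count between siRNA and euthyroid liver, 2, was 1 to 2 with 1 array left out, being 1 without euthyroid replicate 3, siRNA replicate 2 or siRNA replicate 3, and 1 with median scaling. Over all genes 1397 passed higher with all arrays, 1086, 1071 and 898 without those arrays in turn, and 1309 with median scaling. Cyp2a12 lost its call with median scaling and Cyp2a4 with each of those arrays left out. The count between T3 and euthyroid liver, 4, was 2 to 4 with 1 array left out, with 2 without euthyroid replicate 2, and 3 to 5 under the other alternatives. Over all genes 812 passed higher with all arrays, 529 without euthyroid replicate 2, 301 with median scaling and 994 with no background correction. Leaving out an array leaves fewer samples, and the other causes were not tested. Same-numbered arrays did not deviate together (correlations of -0.056 to 0.028). This shows no shared deviation over all genes and cannot exclude a pairing of the samples. With the replicate number as a block the counts were 4 for T3 against euthyroid, 2 for siRNA against T3 (Cyp2a5 at adjusted p = 0.05769) and 2 for siRNA against euthyroid. Over all genes that block gave 665 higher, 611 lower and 1227 higher in these comparisons in turn. The headers give no slide, so no fit with slide as a block was made. Signals near background limit Cyp2b10, Cyp2b13 and Cyp2b23.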

Other observations

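Genes that set T3 replicate 2 apart from the other T3 arrays were read after the values of the Cyp2b genes had been seen. The largest positive gap of all 10408 genes was that of A1bg, a female-biased gene, with signals of 240, 3176 and 742 on T3 replicates 1, 2 and 3 and a log2 gap of 2.75 over the mean of the others. Bhmt, which encodes betaine-homocysteine methyltransferase, ranked 3, with 1707, 11069 and 2874 and a gap of 1.92. Female-biased Cyp17a1 and the repressor Cux2 had gaps of 1.21 and 1.18. Over the 6 other female-biased genes tested, the median log2 difference from the euthyroid mean was 2.07 on T3 replicate 2, near the 1.94 of replicate 1, and 1.28 on replicate 3. The second lowest gap was that of Hsd3b5, a male-biased steroid dehydrogenase, with signals of 8730, 1807 and 8544 and a gap of -2.73, while male-biased Elovl3 was at 0.03. Over the 16 male-biased genes tested, the median log2 difference from the euthyroid mean was -0.54, -0.95 and -0.72 on T3 replicates 1, 2 and 3. Alb, the albumin gene, read 538, 1556 and 639 on its probe on these arrays.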
